A study of Mus musculus with 93 samples.

Results

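Liver gene expression was compared between 6 129S1/SvImJ and 7 DBA/2J male mice, all fed a western-style diet (WD). They were taken from 93 mice of 7 inbred strains by their strain and diet labels alone, and no measured value entered that choice. The labels name no transgene or drug, and the groups differ in their inbred background. All mice were moved at 6 weeks of age to 30°C, the temperature at which mice need no extra heat production (thermoneutrality). From 7 weeks they were fed WD, with 40% of its energy from fat, 17% from protein and 43% from carbohydrates, and livers were collected at 24 weeks, after 17 weeks of diet, a 4-h fast and perfusion. Mice of the same strains on the matched control diet (CD, 10% fat, 17% protein and 73% carbohydrates), 7 of 129S1/SvImJ and 6 of DBA/2J, had the same housing and age and were used to ask which strain differences were also found without WD. The labels place 3 of the 129S1/SvImJ WD mice in cohort 3 and 4 of the DBA/2J WD mice in cohort 4, while cohort 5 holds 3 mice of each. Outside cohort 5, strain and cohort cannot be told apart, and a fit on these 6 mice is given as the within-cohort value. The CD mice of 129S1/SvImJ were in cohorts 3 and 5 and those of DBA/2J in cohorts 4 and 5, so the same holds on CD. No within-cohort fit was made for CD or for the change with diet.

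Hepatocytes make and burn fat, synthesize cholesterol and bile acids, detoxify foreign compounds and secrete most plasma proteins, among them complement and clotting factors. Sterols and fatty acids control these programs by feedback: when the liver takes up cholesterol, the SREBP transcription factors are held back and the genes of sterol synthesis fall. A diet rich in fat and sugar loads hepatocytes with lipid, and damaged or overloaded liver draws monocytes from the blood, which become lipid-associated macrophages, while stellate cells lay down collagen. 129S1/SvImJ and DBA/2J are old laboratory strains that carry different haplotypes of the major histocompatibility complex (MHC, called H2 in mice).

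Sequencing depth was even, with 43304796 to 47811116 reads on genes per mouse. The RNA integrity number (RIN) was 8.75 ± 0.259 (SD, n = 6) in 129S1/SvImJ and 8.80 ± 0.245 (SD, n = 7) in DBA/2J. All reads were mapped to the C57BL/6J genome, from which both strains differ. The share of reads that mapped to several places was 10.0% ± 0.382 in 129S1/SvImJ and 9.41% ± 0.364 in DBA/2J (SD, two-sided exact permutation test, p = 0.0128, 0.0299 adjusted over 7 measures), and the share outside genes was 4.35% ± 0.296 and 4.95% ± 0.304 (exact p = 0.00466, adjusted 0.0163). These tests did not take cohort into account. In cohort 5 alone, the share mapped to several places was 9.73%, 10.06% and 9.54% in the 129S1/SvImJ mice and 10.05%, 9.63% and 9.52% in the DBA/2J mice. There the share outside genes was 3.88%, 4.37% and 4.28% in 129S1/SvImJ and 4.70%, 5.05% and 4.83% in DBA/2J. The part of these shares in the differences below was not tested. Genes with near-identical copies in the genome are uncertain throughout, and so are genes whose exons overlap another gene on the opposite strand, because whether the counting used strand is not given in the sources used here. Among the genes given below with their levels, Gdpd3, Mmp12, Elovl6, Cyp51, Srebf1, Abcg5, Nr1i3, Cyp2c55, Fgg, Hamp2, Mt2, Enho, Hc, Ciita, Cx3cr1, Cxcl10, Oasl1, Irf7, Tnc, Stab2, Fcgr2b, Cd52, Crybg2 and Prss8 have such an overlap. Genes given by a log2 fold change alone that do not come from the rule for named genes, stated with the methods, were picked from the lists as examples after their values were seen.

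Among the genes chosen to check the strain labels, H2-Ea-ps, Gpnmb, Hc and C4a separated the strains. H2-Ea-ps, the class II alpha chain that the H2 haplotype of 129S1/SvImJ cannot express, had 0 or 1 read per mouse in 129S1/SvImJ and 11.8 to 25.6 counts per 1000000 reads (CPM, on TMM-scaled library sizes) in DBA/2J. Gpnmb, for which DBA/2J carries a premature stop codon, was measured at 10.7, 24.3 and 31.6 CPM in 129S1/SvImJ and 0, 0.0650 and 0.143 CPM in DBA/2J, where here and below the 3 values of a strain are the lowest, the median and the highest mouse. Hc, the gene of complement C5, for which DBA/2J carries a null allele, was measured at 758, 847 and 964 CPM in 129S1/SvImJ and 282, 352 and 424 CPM in DBA/2J. C4a, the sex-limited copy of complement C4, was measured at 47.5, 120.1 and 208 CPM in 129S1/SvImJ and 463, 585 and 782 CPM in DBA/2J. For each of these 4 genes the 2 strains did not overlap. Casp4, Nnt, Glo1 and Alad, chosen for the same check, overlapped between the strains and so did not tell them apart. Their mean levels were 2.21, 141.4, 590.5 and 251.6 CPM in 129S1/SvImJ and 2.15, 137.5, 623.6 and 268.8 CPM in DBA/2J. Liver identity was plain in every mouse: the summed level of 17 hepatocyte markers, albumin among them, was 92010 to 116400 CPM in 129S1/SvImJ and 107100 to 139300 CPM in DBA/2J.

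On WD, 6112 of 19110 genes tested (32.0%) were differentially expressed between the strains at a Benjamini–Hochberg adjusted p below 0.05 (limma-voom, with the adjustment over all genes tested). Of these DEGs, 2906 (15.2% of genes tested) were higher and 3206 (16.8%) were lower in 129S1/SvImJ. The log2 fold change, 129S1/SvImJ over DBA/2J, had a median of -0.01 over all genes tested, and it exceeded 1 in 967 DEGs and lay under -1 in 1035. For 3343 genes (17.5%) the 6 and the 7 mice did not overlap. In bulk tissue, fewer cells of a type and less RNA per cell cannot be told apart. In cohort 5 alone, 15930 genes could be tested and 4494 were called, of which 2115 were lower in 129S1/SvImJ. Of the 5599 DEGs tested there, 5591 had the same sign and 3745 were also called in the same direction. The cohort 5 mice are among the mice whose values selected these DEGs. The agreement of sign was thus in part fixed by the choice and is not an independent check.

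**Figure D1:**
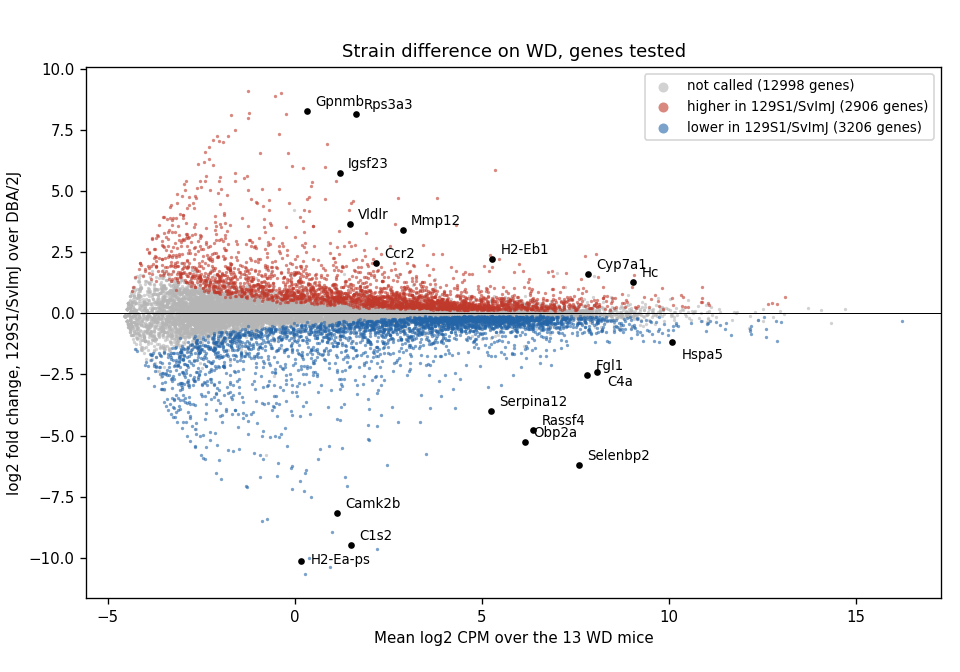
Log2 fold change of 129S1/SvImJ over DBA/2J (y axis) against the mean log2 CPM of the 13 WD mice (x axis), 1 point per gene tested. The 2906 DEGs higher in 129S1/SvImJ are red, the 3206 lower DEGs blue and the other genes gray, and genes named in the text are marked in black, from H2-Ea-ps at -10.12 to Gpnmb at 8.26.

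Some of the largest differences came close to presence against absence, and others lay between 2 expressed levels. Among DEGs whose mean log2 CPM was 1 or more, C1s2, a copy of the complement protease gene C1s, was measured at 0.0196, 0.0610 and 0.177 CPM in 129S1/SvImJ and 43.7, 45.9 and 53.4 CPM in DBA/2J. That was a log2 fold change of -9.46 ± 0.31 (adjusted p = 7.51e-44), where ± is the standard error. Camk2b, a calcium/calmodulin-dependent kinase, was measured at 0.0205, 0.0796 and 0.177 CPM in 129S1/SvImJ and 22.9, 24.7 and 29.4 CPM in DBA/2J. Both genes were close to absent in 129S1/SvImJ and present in every DBA/2J mouse. Selenbp2, a selenium-binding protein of the liver, reached 11.5, 21.4 and 27.2 CPM in 129S1/SvImJ and 1025, 1533 and 1779 CPM in DBA/2J, with a log2 fold change of -6.20 ± 0.33 (adjusted p = 9.28e-29). Obp2a, an odorant-binding protein, was at 4.09, 11.4 and 18.8 CPM in 129S1/SvImJ and 228, 355 and 612 CPM in DBA/2J, and Rassf4, of the Ras association domain family, was at 11.8, 13.7 and 17.1 CPM in 129S1/SvImJ and 243, 398 and 475 CPM in DBA/2J. The 10 lowest log2 fold changes also held Tpm3-rs7 (-6.19), Rpsa-ps10 (-5.74), Lrit1 (-5.52), Crybg2 (-5.18) and Fam25c (-5.15). Tpm3-rs7 and Rpsa-ps10 are copies of other genes and are uncertain, and Crybg2 overlaps Cd52 on the opposite strand.

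In the other direction stood Vldlr, the receptor for very low density lipoprotein, at 8.00, 10.38 and 12.9 CPM in 129S1/SvImJ and 0.389, 0.834 and 1.35 CPM in DBA/2J. No DBA/2J mouse reached a 129S1/SvImJ mouse, and the log2 fold change was 3.65 ± 0.39 (adjusted p = 4.38e-13). Asic5, a bile acid-sensitive ion channel, was measured at 58.9, 77.8 and 93 CPM in 129S1/SvImJ and 5.43, 6.31 and 7.21 CPM in DBA/2J, and Gdpd3, a lysophospholipase D, at 14.0, 15.1 and 18.2 CPM in 129S1/SvImJ and 0.173, 0.381 and 0.524 CPM in DBA/2J. Sult1e1, the estrogen sulfotransferase, was measured at 14.0, 23.2 and 43.0 CPM in 129S1/SvImJ and 0.449, 1.89 and 8.10 CPM in DBA/2J, a log2 fold change of 3.67 ± 0.41 (adjusted p = 3.16e-12). Cyp2a4, a steroid hydroxylase with close paralogs, (4.71), Mmp12, the macrophage metalloelastase (3.42), Cd1d2, which presents lipid antigens (4.22), H2-Bl (4.51), Igsf23 (5.72) and Rps3a3 (8.13) completed the 10 highest. Rps3a3 and H2-Bl have close copies and are uncertain. Cd1d2, like H2-Bl, is annotated as a polymorphic pseudogene and is uncertain too. Of the pseudogenes tested 21.0% were called, and of the protein-coding genes 33.8%, while 9.08% of pseudogenes and 3.00% of protein-coding genes were called with a change over 4-fold. The part of mapping to 1 reference in these calls was not tested.

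On CD, 6768 genes (35.4%) were called between the strains, 3296 higher (17.2%) and 3472 lower (18.2%) in 129S1/SvImJ. The CD and WD comparisons share no mice. On both diets, however, part of the mice of each strain came from a cohort without the other strain. The part of cohort in the agreement between the diets was not tested. Of the genes called on either diet, 3345 had the same direction on both, which is 54.7% of the WD calls and 49.4% of the CD calls, and 227 were called in opposite directions. All of the 10 lowest genes above were also called on CD in the same direction, for example C1s2 (-9.22), Selenbp2 (-7.17) and Obp2a (-6.08), and of the 10 highest, 8 were, Sult1e1 (1.54) and Mmp12 (-0.63) being the other 2. The test of the change itself, the WD difference minus the CD difference, called 1894 genes (9.91%), of which 1094 (5.72%) were relatively higher and 800 (4.19%) relatively lower in 129S1/SvImJ on WD.

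Genes of fatty acid synthesis and sterol synthesis were lower in 129S1/SvImJ on WD. In the list of fatty acid synthesis and desaturation, 12 of 21 genes tested were lower and 1, Acaca, was higher, with a median log2 fold change of -0.56, against -0.01 over all genes (-0.38 in cohort 5 alone). Pnpla3, a lipase and acyltransferase of lipid droplets, was measured at 1.18, 1.49 and 3.06 CPM in 129S1/SvImJ and 3.55, 8.05 and 11.9 CPM in DBA/2J, a log2 fold change of -2.24 ± 0.72 (adjusted p = 0.0117). Elovl6, which elongates palmitate, was measured at 49.4, 53.8 and 66.5 CPM in 129S1/SvImJ and 80.5, 111 and 212 CPM in DBA/2J. Here the groups did not overlap, 1 mouse of DBA/2J (replicate 6) stood well above the other 6, and the log2 fold change was -1.03 ± 0.24 (adjusted p = 0.00039). Acacb, the acetyl-CoA carboxylase at the mitochondrial surface, was measured at 50.9, 66.8 and 95.4 CPM in 129S1/SvImJ and 103, 134 and 151 CPM in DBA/2J, a log2 fold change of -0.94 ± 0.27 (adjusted p = 0.00469). Of the 9 desaturases and elongases in the list, 6 were lower and 3 were not called, and among the lower ones Fads1 (-0.56), Fads2 (-0.59), Elovl2 (-0.72) and Elovl5 (-0.67) are given as examples.

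The upstream regulators were lower too. Srebf1, the gene of the lipogenic SREBP-1, was chosen after its values were seen, and was measured at 239.8, 342 and 416 CPM in 129S1/SvImJ and 415, 528 and 627 CPM in DBA/2J. On WD, the groups overlapped, with 5 of the 6 129S1/SvImJ mice below every DBA/2J mouse, and the log2 fold change was -0.64 ± 0.23 (adjusted p = 0.0274), while on CD it was 0.79 ± 0.23 (adjusted p = 0.00501), so the sign turned between the diets and the change was -1.43 ± 0.33 (adjusted p = 0.00207). Its call on WD was lost without 129S1/SvImJ replicate 6 and without DBA/2J replicate 4. Mlxipl, the carbohydrate-responsive factor ChREBP (-0.47), was lower as well. On CD the list had 7 of 21 genes lower, 5 higher and a median of -0.05.

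Among 20 enzymes of cholesterol synthesis, 7 were lower and 1, Hsd17b7, was higher, with a median of -0.32 (-0.39 in cohort 5). Cyp51, the lanosterol demethylase, was measured at 21.0, 22.8 and 28.9 CPM in 129S1/SvImJ and 34.1, 40.2 and 67.2 CPM in DBA/2J. Here every 129S1/SvImJ mouse lay below every DBA/2J mouse, and the log2 fold change was -0.81 ± 0.21 (adjusted p = 0.00171). Mvd, mevalonate diphosphate decarboxylase, was measured at 3.28, 4.06 and 5.50 CPM in 129S1/SvImJ and 7.00, 8.16 and 14.3 CPM in DBA/2J, a log2 fold change of -1.04 ± 0.36 (adjusted p = 0.0197). Fdps, farnesyl diphosphate synthase, had a log2 fold change of -1.11 ± 0.37 (adjusted p = 0.0146). DBA/2J replicate 5 was the highest mouse for Cyp51 and Mvd, and the number of lower enzymes was 4 without it, 3 with genes of any count included and 12 in a separate fit of the 13 mice.

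A sterol sensor moved in the same way. Insig1, which holds SREBP in the endoplasmic reticulum and is itself an SREBP target, was measured at 51.2, 75.8 and 92.3 CPM in 129S1/SvImJ and 98.8, 159 and 269 CPM in DBA/2J. For this gene every 129S1/SvImJ mouse lay below every DBA/2J mouse, and the log2 fold change was -1.15 ± 0.22 (adjusted p = 1.73e-05). On CD it was -0.25, which was not called, and neither was the change with diet, -0.89 ± 0.32 (adjusted p = 0.0579). Of the 12 sterol regulators, 5 were lower (3 in cohort 5 alone) and 1, Mylip, a ubiquitin ligase, was higher. Their median was -0.01, the same as over all genes (-0.20 in cohort 5 and -0.09 on CD), so the list as a whole was not shifted.

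Single genes of bile acid synthesis and cholesterol export were higher in 129S1/SvImJ, while their lists as a whole lay near the other genes. Cyp7a1, the rate-limiting enzyme of bile acid synthesis, was measured at 261, 414 and 681 CPM in 129S1/SvImJ and 70.9, 132 and 257 CPM in DBA/2J. On WD every 129S1/SvImJ mouse lay above every DBA/2J mouse, with a log2 fold change of 1.59 ± 0.56 (adjusted p = 0.0231), and on CD it was 3.81 ± 0.57 (adjusted p = 4.45e-08). The WD call was lost with cohort as a covariate, in cohort 5 alone (1.30), without 129S1/SvImJ replicate 3 and without DBA/2J replicate 5. Nr0b2, the repressor SHP that acts on Cyp7a1, was measured at 4.27, 9.28 and 22.3 CPM in 129S1/SvImJ and 13.2, 29.5 and 48.7 CPM in DBA/2J, a log2 fold change of -1.52 ± 0.39 (adjusted p = 0.00138). Abcg5, a subunit of the canalicular sterol exporter, was measured at 140.3, 176 and 191 CPM in 129S1/SvImJ and 68.5, 86.9 and 97.4 CPM in DBA/2J, and every 129S1/SvImJ mouse lay above every DBA/2J mouse. Its log2 fold change was 1.00 ± 0.14 (adjusted p = 5.47e-09), and its partner Abcg8 (0.66), which overlaps it on the opposite strand, was also higher. Slco1a4, an uptake transporter of bile acids and drugs, was measured at 29.6, 37.1 and 45.1 CPM in 129S1/SvImJ and 5.23, 6.31 and 9.82 CPM in DBA/2J, a log2 fold change of 2.41 ± 0.33 (adjusted p = 5.71e-09). Over the lists, 5 of 23 bile acid genes were higher and 2 lower, with a median of 0.06, and 10 were higher in a separate fit of the 13 mice. Of 26 genes of efflux and lipoproteins, 8 were higher and 4 lower (2 in cohort 5 alone), with a median of 0.02, among them Apom (1.40), which carries sphingosine 1-phosphate in HDL, Apoc2 (-0.90) and Apoa5 (-0.63).

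In fatty acid oxidation, 8 of 34 genes were higher and 2 lower, with a median of 0.10. The number higher was 5 without 129S1/SvImJ replicate 6 or DBA/2J replicate 5, and it was 12 in cohort 5 alone, 13 with sample quality weights, 14 with cohort as a covariate and 16 in the separate fit. Acadm (0.55), Slc25a20 (0.55) and Eci1 (0.62), of the mitochondrial pathway, were among the higher genes, whereas the omega-hydroxylases were split, Cyp4a31 at 1.82 and Cyp4a32 at -1.66, which are close paralogs and uncertain. Of 28 genes of lipid droplets, 2 were higher, Vldlr and Lpin1, a phosphatidate phosphatase (1.67), and 3 were lower. These counts were not stable: in cohort 5 alone 8 were higher and 3 lower, with a median of 0.29 against -0.01, with cohort as a covariate 6 were higher, without DBA/2J replicate 4 the number higher was 4, and without DBA/2J replicate 5 the number lower was 1. One of the lower genes was Cidea, a droplet protein that enlarges lipid droplets, chosen after its values were seen, at 0.0393, 0.0809 and 0.202 CPM in 129S1/SvImJ and 0.800, 4.41 and 11.7 CPM in DBA/2J. The highest 129S1/SvImJ mouse did not reach the lowest DBA/2J mouse, and the DBA/2J mice themselves spread over more than an order of magnitude, with a log2 fold change of -5.07 ± 1.03 (adjusted p = 4.39e-05).

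Among gluconeogenic and insulin response genes, 5 of 22 were lower (3 in cohort 5 alone) and 1 higher. These are 22.7% and 4.5%, against 16.8% lower and 15.2% higher over all genes tested. The median was -0.07 (-0.04 in cohort 5), so the list as a whole was little shifted. Insr, the insulin receptor, was measured at 72.2, 83.5 and 89.5 CPM in 129S1/SvImJ and 110.1, 128 and 150.3 CPM in DBA/2J. For Insr every 129S1/SvImJ mouse lay below every DBA/2J mouse, and the log2 fold change was -0.64 ± 0.09 (adjusted p = 2.68e-09). Pck1, the cytosolic enzyme that commits oxaloacetate to glucose production, was measured at 267, 542 and 1332 CPM in 129S1/SvImJ and 832, 1188 and 1678 CPM in DBA/2J, a log2 fold change of -1.16 ± 0.30 (adjusted p = 0.00157) that was not called in cohort 5 alone (-0.53). Of 12 periportal hepatocyte markers, Pck1 among them, 6 were lower and none was higher, with a median of -0.41, and of 12 pericentral markers 3 were higher and 1 lower, with a median of 0.20. Cyp2e1, a pericentral cytochrome P450, was measured at 10310, 11410 and 12210 CPM in 129S1/SvImJ and 6599, 7111 and 7549 CPM in DBA/2J, and every 129S1/SvImJ mouse lay above every DBA/2J mouse. The log2 fold change was 0.66 ± 0.20 (adjusted p = 0.00613). The periportal sum was 2461 to 3652 CPM in 129S1/SvImJ and 3609 to 4547 CPM in DBA/2J, and the pericentral sum was 13390 to 15420 CPM in 129S1/SvImJ and 8667 to 9873 CPM in DBA/2J. Most of the pericentral sum was Cyp2e1, so it says little of the other markers.

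Xenobiotic enzymes differed in both directions. Of 47 cytochrome P450 genes of families 1 to 3, 10 were higher (21.3%) and 7 lower (14.9%). Of 53 conjugating enzymes, 13 were higher (24.5%) and 11 lower (20.75%). Over all genes tested these shares were 15.2% and 16.8%. Cyp2c23, an arachidonic acid epoxygenase, was chosen after its values were seen and measured at 443, 514 and 565 CPM in 129S1/SvImJ and 81.3, 106 and 125 CPM in DBA/2J. In it every 129S1/SvImJ mouse lay above every DBA/2J mouse, and the log2 fold change was 2.32 ± 0.14 (adjusted p = 1.65e-26). Cyp2c55 was measured at 0.589, 1.23 and 1.47 CPM in 129S1/SvImJ and 6.11, 6.99 and 11.7 CPM in DBA/2J, a log2 fold change of -2.92 ± 0.43 (adjusted p = 3.48e-08), and the glucuronosyltransferase family gene Ugt3a1 at 26.0, 30.8 and 34.8 CPM in 129S1/SvImJ and 86.2, 94.3 and 103 CPM in DBA/2J, a log2 fold change of -1.62 ± 0.16 (adjusted p = 6.8e-14). Nr1i3, the xenobiotic receptor CAR, which drives Cyp2b10, was measured at 33.6, 42.7 and 56.1 CPM in 129S1/SvImJ and 10.2, 15.7 and 15.9 CPM in DBA/2J. Every 129S1/SvImJ mouse had at least the level of 33.6 CPM, and no DBA/2J mouse passed 15.9 CPM, a log2 fold change of 1.70 ± 0.25 (adjusted p = 3.91e-08), and Cyp2b10 was also higher (1.66). These families hold near-identical paralogs, so that single members are uncertain.

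Plasma proteins of the acute phase, which hepatocytes secrete during inflammation, were lower in 129S1/SvImJ. Of 31 genes, 16 were lower and 2 higher, with a median of -0.64 (-0.46 in cohort 5 and -0.51 on CD). Fgl1, a fibrinogen-like hepatokine, was measured at 42.7, 95.2 and 139 CPM in 129S1/SvImJ and 247, 597 and 949.7 CPM in DBA/2J. No DBA/2J mouse came as low as the highest 129S1/SvImJ mouse, and the log2 fold change was -2.54 ± 0.46 (adjusted p = 5.82e-06). The genes of the 3 fibrinogen chains, chosen after their values were seen, moved together: Fga was measured at 3686, 4302 and 5138 CPM in 129S1/SvImJ and 6395, 9002 and 10380 CPM in DBA/2J, and the log2 fold changes were -0.95 ± 0.17 (adjusted p = 5.52e-06) for Fga, -0.86 ± 0.17 (adjusted p = 4.18e-05) for Fgb and -0.88 ± 0.17 (adjusted p = 1.38e-05) for Fgg. Apcs, serum amyloid P and also chosen so, was measured at 168, 219 and 253 CPM in 129S1/SvImJ and 264, 459 and 713 CPM in DBA/2J, a log2 fold change of -1.12 ± 0.34 (adjusted p = 0.00779). Hamp2, a copy of the hepcidin gene, was measured at 3.38, 8.54 and 11.8 CPM in 129S1/SvImJ and 31.7, 39.2 and 75.0 CPM in DBA/2J, a log2 fold change of -2.46 ± 0.37 (adjusted p = 4.99e-08), and Mt2, a metallothionein, at 0.411, 0.726 and 2.00 CPM in 129S1/SvImJ and 2.67, 5.62 and 8.40 CPM in DBA/2J, a log2 fold change of -2.67 ± 0.64 (adjusted p = 0.000511). The 2 higher genes were Saa3 and Il1rn, which macrophages also express.

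Saa3, a serum amyloid A made outside hepatocytes as well as in them, was measured at 8.96, 13.9 and 16.7 CPM in 129S1/SvImJ and 2.25, 3.24 and 5.08 CPM in DBA/2J. In this gene every 129S1/SvImJ mouse lay above every DBA/2J mouse, with a log2 fold change of 2.06 ± 0.31 (adjusted p = 7.54e-08) on WD and -0.32 ± 0.46 (adjusted p = 0.641) on CD. Of 39 complement genes, 17 were lower and 6 higher (11 higher in cohort 5 alone), with a median of -0.30 (-0.14 in cohort 5). C9 (-0.81), the pore-forming last component, C8a (-0.68), its partner, and Mbl1 (-0.56), a lectin that starts the cascade, were lower, while Hc (1.29) and C8g (0.89) were higher. Of 28 genes of clotting and fibrinolysis, 9 were lower and 8 higher, and in cohort 5 alone 4 were lower and 10 higher. Serpina12, the adipokine vaspin, was measured at 4.89, 7.56 and 17.0 CPM in 129S1/SvImJ and 99.4, 138 and 177 CPM in DBA/2J. That was a log2 fold change of -4.00 ± 0.52 (adjusted p = 6.24e-10), and on CD it was -4.30. Enho, the gene of the secreted peptide adropin, was measured at 1.90, 3.23 and 5.13 CPM in 129S1/SvImJ and 7.93, 15.5 and 18.1 CPM in DBA/2J, a log2 fold change of -2.13 ± 0.37 (adjusted p = 1.73e-06).

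**Figure D2:**
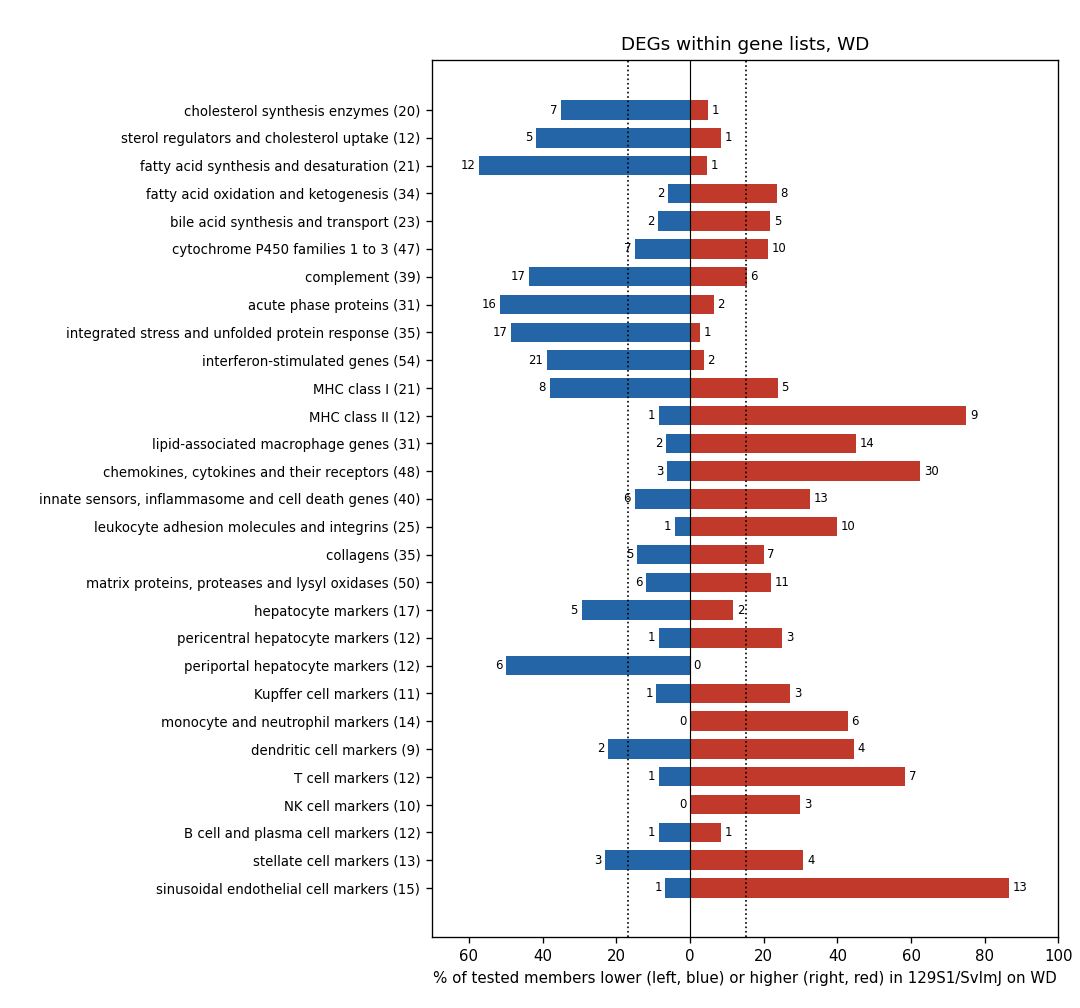
Share of the tested members of 29 gene lists that were DEGs lower (blue, left) or higher (red, right) in 129S1/SvImJ on WD, in % on the x axis, with the number of DEGs at the end of each bar and the number tested in parentheses. Dotted lines mark the shares over all genes tested, 16.8% lower and 15.2% higher. MHC class II (9 higher of 12) and sinusoidal endothelial markers (13 higher of 15) reach farthest to the right, and fatty acid synthesis (12 lower of 21) farthest to the left.

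Chaperones of the endoplasmic reticulum (ER) were lower in 129S1/SvImJ. When unfolded proteins pile up in the ER, the factors ATF6 and XBP1 switch on chaperones and folding enzymes through the ER stress element (ERSE) in their promoters. Of 35 genes of the integrated stress and unfolded protein response, 17 were lower and 1 was higher, with a median of -0.45 (-0.45 in cohort 5). Hspa5, the chaperone BiP and chosen after its values were seen, was measured at 453, 627 and 1154 CPM in 129S1/SvImJ and 1073, 1641 and 2332 CPM in DBA/2J. Here the groups overlapped, with 5 of the 6 129S1/SvImJ mice below every DBA/2J mouse, and the log2 fold change was -1.19 ± 0.24 (adjusted p = 4.27e-05). Creld2, an ER-resident folding protein, was measured at 25.8, 38.8 and 91.95 CPM in 129S1/SvImJ and 67.5, 132 and 231 CPM in DBA/2J, a log2 fold change of -1.52 ± 0.34 (adjusted p = 0.000187), and Sdf2l1, a cofactor of BiP, at 14.7, 19.2 and 34.2 CPM in 129S1/SvImJ and 41.9, 50.5 and 89.7 CPM in DBA/2J, a log2 fold change of -1.39 ± 0.23 (adjusted p = 1.08e-06). For Sdf2l1 every 129S1/SvImJ mouse lay below every DBA/2J mouse. Hsp90b1, the ER chaperone GRP94 (-0.84), Calr, calreticulin (-0.51), Pdia4 (-1.16) and Hyou1 (-1.16) were lower, and Asns, asparagine synthetase and a target of ATF4, was higher at 2.24 ± 0.50 (adjusted p = 0.000194).

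The same list had 20 genes lower and 2 higher on CD, with a median of -0.50, and for none of the 35 genes was a change of the strain difference with diet called. Hspa5 stood at -1.21 ± 0.24 (adjusted p = 2.52e-05) on CD and Creld2 at -1.51 ± 0.34 (adjusted p = 0.000183). The promoters of Creld2, Hspa5 and Hsp90b1 are shown because each holds an ERSE, searched on both strands as CCAAT, then 9 bases of any kind, then CCACG. Each runs from 250 bases before to 50 after the gene start in the C57BL/6J reference (RefSeq, GRCm38.p6), so it is the sequence of neither strain. Capitals mark the match.
Creld2, chr15:88819396-88819695, plus strand: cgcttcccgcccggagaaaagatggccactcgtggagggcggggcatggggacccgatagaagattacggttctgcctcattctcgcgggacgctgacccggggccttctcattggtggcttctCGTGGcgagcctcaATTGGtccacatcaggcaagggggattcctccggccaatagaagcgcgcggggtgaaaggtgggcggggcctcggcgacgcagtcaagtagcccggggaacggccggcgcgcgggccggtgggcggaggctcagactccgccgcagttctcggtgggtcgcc
Hspa5, chr2:34771840-34772139, plus strand: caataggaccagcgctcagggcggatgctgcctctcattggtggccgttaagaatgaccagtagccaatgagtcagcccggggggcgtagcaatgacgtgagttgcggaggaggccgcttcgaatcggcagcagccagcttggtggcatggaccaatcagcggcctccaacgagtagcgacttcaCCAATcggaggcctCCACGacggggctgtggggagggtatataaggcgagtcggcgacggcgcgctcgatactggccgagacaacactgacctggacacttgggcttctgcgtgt
Hsp90b1, chr10:86705395-86705694, minus strand: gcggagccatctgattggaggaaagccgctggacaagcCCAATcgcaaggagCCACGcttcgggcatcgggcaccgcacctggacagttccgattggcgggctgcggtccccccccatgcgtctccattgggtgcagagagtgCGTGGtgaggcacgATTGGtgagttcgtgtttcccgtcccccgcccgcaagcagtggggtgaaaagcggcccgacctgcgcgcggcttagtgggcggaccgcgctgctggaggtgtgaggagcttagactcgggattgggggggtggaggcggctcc

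The match began 126 bases before the start in Creld2 and 65 before it in Hspa5, and Hsp90b1 held 2. Among all 27025 genes with a promoter sequence, 37 (0.137%) held the motif. In the list, 33 genes had a promoter sequence and 7 held the motif, all 7 of them among the 15 lower genes with a sequence and none among the 17 that were not called. The 7 were Calr, Canx, Creld2, Dnajc3, Hsp90b1, Hspa5 and Pdia6. A match describes letters in the reference and is not evidence that a factor was bound, and no match says only that these letters are not in this window.

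MHC class II genes were higher in 129S1/SvImJ on WD, and on CD none was called higher. These proteins present peptides to CD4 T cells and are expressed by dendritic cells, B cells and activated macrophages. Of 12 genes tested, 9 were higher and 1, H2-Ea-ps, was lower, with a median of 1.80 (2.11 in cohort 5), and on CD none was higher, 2 were lower and the median was -0.27. H2-Eb1, a class II beta chain, was measured at 71.3, 85.7 and 122.9 CPM in 129S1/SvImJ and 13.4, 20.2 and 29.3 CPM in DBA/2J. Every 129S1/SvImJ mouse lay above every DBA/2J mouse, and the log2 fold change was 2.22 ± 0.27 (adjusted p = 6.47e-11) on WD and -0.15 ± 0.27 (adjusted p = 0.729) on CD, a change of 2.37 ± 0.38 (adjusted p = 1.68e-05). H2-Ab1, the beta chain of the other class II molecule, was measured at 82.2, 96.4 and 137 CPM in 129S1/SvImJ and 14.9, 23.2 and 33.6 CPM in DBA/2J, a log2 fold change of 2.20 ± 0.27 (adjusted p = 9.06e-11), and its partner H2-Aa, chosen after its values were seen, at 109, 134 and 172 CPM in 129S1/SvImJ and 22.8, 33.9 and 55.8 CPM in DBA/2J. H2-DMb1, which loads the peptides, was measured at 9.16, 12.2 and 15.8 CPM in 129S1/SvImJ and 1.74, 2.22 and 3.08 CPM in DBA/2J, a log2 fold change of 2.43 ± 0.27 (adjusted p = 2.57e-12). Ciita, the master activator of these genes and also chosen after its values were seen, was measured at 5.01, 6.94 and 8.14 CPM in 129S1/SvImJ and 1.10, 1.99 and 2.27 CPM in DBA/2J. In it every 129S1/SvImJ mouse lay above every DBA/2J mouse, with a log2 fold change of 1.89 ± 0.27 (adjusted p = 1.26e-08) on WD and -0.55 ± 0.34 (adjusted p = 0.215) on CD.

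The promoters of H2-Eb1 and H2-Aa are shown because they hold the core of the Y box, the element bound by NF-Y in class II promoters, searched as CTGATTGG on both strands. Its reverse complement holds the CCAAT of the ERSE. The sequences are of the C57BL/6J reference from the same source, and capitals mark the match, which began 62 bases before the start in H2-Eb1 and 51 before it in H2-Aa.
H2-Eb1, chr17:34305617-34305916, plus strand: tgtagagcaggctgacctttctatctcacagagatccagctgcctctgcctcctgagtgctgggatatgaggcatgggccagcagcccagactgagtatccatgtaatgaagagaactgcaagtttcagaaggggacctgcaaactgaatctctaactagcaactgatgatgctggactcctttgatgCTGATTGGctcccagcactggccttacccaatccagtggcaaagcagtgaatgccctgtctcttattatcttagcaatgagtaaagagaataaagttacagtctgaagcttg
H2-Aa, chr17:34287774-34288073, minus strand: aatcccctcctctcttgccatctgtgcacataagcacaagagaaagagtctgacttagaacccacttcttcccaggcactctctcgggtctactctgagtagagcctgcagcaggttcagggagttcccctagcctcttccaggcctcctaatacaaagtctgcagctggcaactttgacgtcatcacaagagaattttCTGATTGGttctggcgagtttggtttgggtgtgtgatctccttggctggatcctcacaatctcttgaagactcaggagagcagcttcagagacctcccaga

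Of 8 class II genes with a promoter sequence, 4 held the motif, and these 4 were among the 6 higher genes with a sequence. Over all genes 4.70% held it. On CD the log2 fold changes of H2-Eb1, H2-Ab1 and H2-Aa were -0.15, -0.08 and -0.15. The reads were mapped to a reference with the H2 haplotype of C57BL/6J, and the part of mapping in the class II differences was not tested.

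Many genes of lipid-associated macrophages were higher in 129S1/SvImJ on WD. These macrophages, marked by TREM2, gather in fatty liver and take up lipid. Of 31 genes of the list, 14 were higher and 2 lower (1 lower without 129S1/SvImJ replicate 2 or 3 or DBA/2J replicate 1 or 4), with a median of 0.59, and in cohort 5 alone 23 were higher, with a median of 1.06. On CD 1 was higher and 11 were lower, with a median of -0.46, and the change with diet was called for 12, all relatively higher on WD. Itgax, the integrin CD11c, was measured at 4.28, 9.00 and 11.5 CPM in 129S1/SvImJ and 0.758, 1.12 and 1.81 CPM in DBA/2J. In Itgax every 129S1/SvImJ mouse lay above every DBA/2J mouse, and the log2 fold change was 2.78 ± 0.39 (adjusted p = 5.86e-09) on WD and -0.84 ± 0.64 (adjusted p = 0.326) on CD, a change of 3.62 ± 0.74 (adjusted p = 0.000511). Mmp12, which overlaps Mmp1b on the opposite strand, was measured at 12.8, 28.9 and 36.1 CPM in 129S1/SvImJ and 1.38, 2.62 and 3.12 CPM in DBA/2J, a log2 fold change of 3.42 ± 0.53 (adjusted p = 1.58e-07) and a change with diet of 4.05 ± 1.37 (adjusted p = 0.0434). Trem2 at 2.21 ± 0.58 (adjusted p = 0.00154), Spp1, osteopontin, at 1.94 ± 0.32 (adjusted p = 8.06e-07) and Lgals3, galectin-3, at 1.70 ± 0.29 (adjusted p = 1.88e-06) were chosen after their values were seen and were higher as well. Gpnmb, whose DBA/2J allele is described above, is 1 of the 14 higher genes. The summed level of the list on WD overlapped, at 2252 to 2642 CPM in 129S1/SvImJ and 2221 to 2768 CPM in DBA/2J.

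Chemokines, cytokines and their receptors were higher in 30 of 48 genes tested and lower in 3, with a median of 0.67 (0.90 in cohort 5). Their summed level on WD overlapped, at 848.5 to 1013 CPM in 129S1/SvImJ and 848.1 to 1157 CPM in DBA/2J. On CD 2 were higher and 20 lower, with a median of -0.55, and the change with diet was called for 26, each relatively higher on WD. Ccl2, the chemokine that recruits monocytes, was measured at 3.18, 5.25 and 5.74 CPM in 129S1/SvImJ and 0.695, 1.59 and 2.16 CPM in DBA/2J. Every 129S1/SvImJ mouse was above the DBA/2J mice, and the log2 fold change was 1.90 ± 0.28 (adjusted p = 4.37e-08) on WD and -1.28 ± 0.49 (adjusted p = 0.0339) on CD, a change of 3.18 ± 0.57 (adjusted p = 7.55e-05). Its receptor Ccr2, which marks infiltrating monocytes, was measured at 6.95, 9.38 and 14.1 CPM in 129S1/SvImJ and 1.57, 2.32 and 3.25 CPM in DBA/2J, a log2 fold change of 2.04 ± 0.24 (adjusted p = 1.89e-11) and a change with diet of 2.33 ± 0.41 (adjusted p = 5.99e-05). Cx3cr1, a fractalkine receptor of monocytes and macrophages, was measured at 2.33, 3.49 and 4.52 CPM in 129S1/SvImJ and 0.608, 1.03 and 1.45 CPM in DBA/2J, a log2 fold change of 1.75 ± 0.39 (adjusted p = 0.000208). Tnf, chosen after its values were seen, was measured at 0.582, 1.03 and 1.98 CPM in 129S1/SvImJ and 0.0434, 0.217 and 0.470 CPM in DBA/2J. The 2 strains did not overlap, at low levels in DBA/2J, and the log2 fold change was 2.21 ± 0.44 (adjusted p = 3.23e-05) on WD and -1.57 ± 0.64 (adjusted p = 0.0455) on CD. Il1r1, the interleukin 1 receptor (-1.68), Cxcl14 (-1.42) and Cxcl12 (-0.39) were the 3 lower genes.

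Leukocyte adhesion molecules were higher in 10 of 25 genes and lower in 1, Itga6 (-1.77), with a median of 0.54, and on CD none was higher and 7 were lower. Of 40 innate sensors and cell death genes, 13 were higher and 6 lower. Tlr1, a receptor for bacterial lipopeptides, was measured at 2.04, 3.41 and 3.63 CPM in 129S1/SvImJ and 0.381, 0.513 and 0.786 CPM in DBA/2J, a log2 fold change of 2.52 ± 0.36 (adjusted p = 1.37e-08), and Tlr12, which binds a parasite profilin, at 2.06, 3.13 and 3.93 CPM in 129S1/SvImJ and 10.8, 11.9 and 14.0 CPM in DBA/2J, a log2 fold change of -1.99 ± 0.31 (adjusted p = 2.2e-07). Tlr12 was also lower on CD (-2.06). Cd52, a surface glycoprotein of leukocytes, was measured at 7.13, 10.3 and 12.8 CPM in 129S1/SvImJ and 1.77, 2.14 and 3.61 CPM in DBA/2J, a log2 fold change of 2.06 ± 0.25 (adjusted p = 6.34e-11), and it overlaps Crybg2, which moved in the opposite direction, on the opposite strand.

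**Figure D3:**
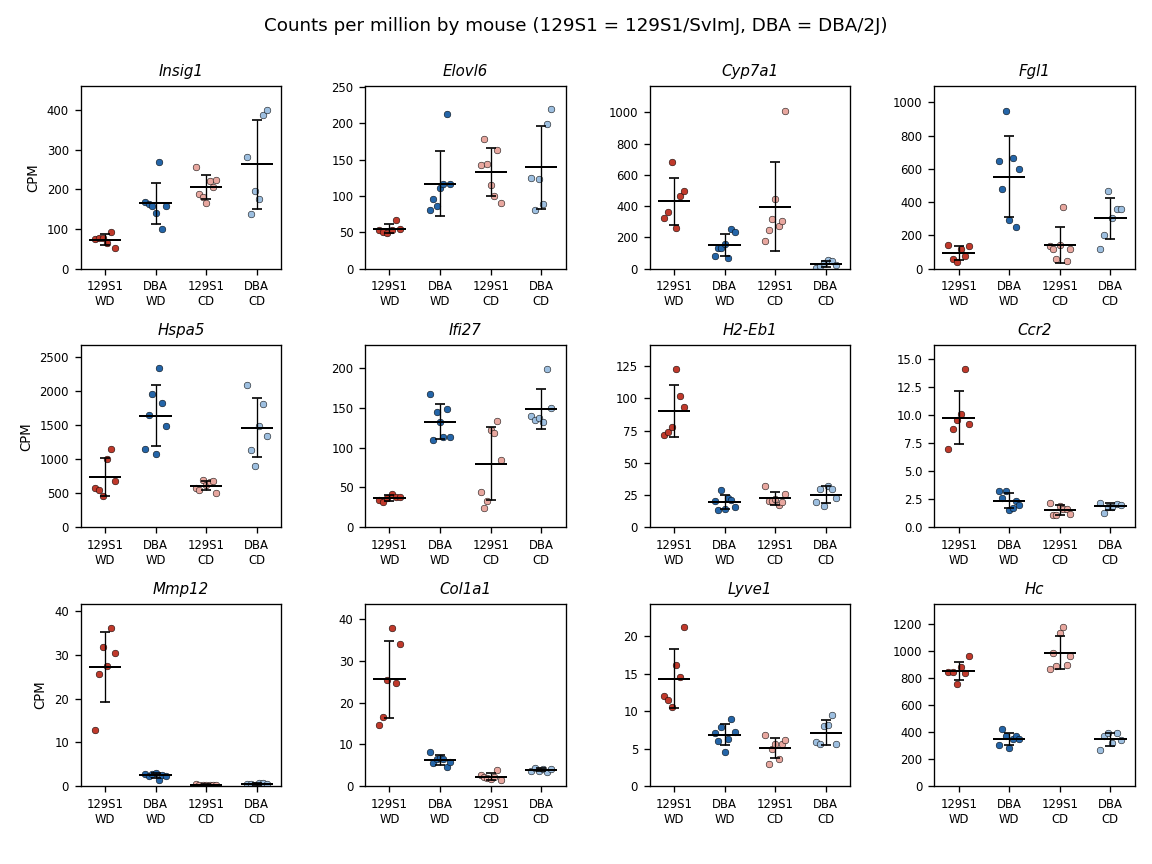
CPM (y axis, from 0) of 12 genes in each mouse, with the strain and diet groups on the x axis, a horizontal bar at the mean and error bars of 1 SD. On WD, H2-Eb1, Ccr2, Mmp12 and Col1a1 are above every DBA/2J mouse in all 6 129S1/SvImJ mice, and every CD mouse lies below the lowest of those 6, while Hc is higher and Hspa5 lower in 129S1/SvImJ on both diets.

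Interferon-stimulated genes went the other way. Of 54 genes, 21 were lower in 129S1/SvImJ and 2, Cxcl9 and Cxcl10, were higher, with a median of -0.37. With cohort as a covariate 10 were lower, and in cohort 5 alone 13, with a median of -0.16, and the part of cohort in the count was not tested further. On CD 30 were lower and 1 higher, with a median of -0.60. Ifi27, a mitochondrial protein induced by type I interferon, was measured at 31.8, 37.1 and 42.2 CPM in 129S1/SvImJ and 109, 132 and 166 CPM in DBA/2J. Every 129S1/SvImJ mouse lay below every DBA/2J mouse, and the log2 fold change was -1.84 ± 0.21 (adjusted p = 3.08e-12) (-1.64 in cohort 5). Oasl1, of the oligoadenylate synthetase family, was measured at 3.22, 4.86 and 6.42 CPM in 129S1/SvImJ and 15.8, 19.5 and 22.9 CPM in DBA/2J, a log2 fold change of -2.03 ± 0.24 (adjusted p = 3.72e-11). Irf7, the factor that amplifies the interferon response, was chosen after its values were seen, as was the antiviral gene Rsad2. Irf7 was measured at 14.2, 18.1 and 21.5 CPM in 129S1/SvImJ and 33.4, 46.0 and 63.6 CPM in DBA/2J, a log2 fold change of -1.25 ± 0.23 (adjusted p = 6.53e-06), and Rsad2 at 3.04, 7.47 and 7.96 CPM in 129S1/SvImJ and 9.36, 13.1 and 18.6 CPM in DBA/2J, a log2 fold change of -1.06 ± 0.30 (adjusted p = 0.00367) that was not called with cohort as a covariate.

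Cxcl10, a chemokine that attracts T cells and is induced by interferon gamma, was measured at 3.29, 7.71 and 10.8 CPM in 129S1/SvImJ and 1.43, 2.69 and 3.12 CPM in DBA/2J. Against the rest of the list, every 129S1/SvImJ mouse lay above every DBA/2J mouse, and the log2 fold change was 1.63 ± 0.27 (adjusted p = 1.1e-06) on WD and 0.01 ± 0.36 (adjusted p = 0.988) on CD, a change of 1.62 ± 0.45 (adjusted p = 0.0121). The promoters of Rsad2, a lower gene, and Cxcl10, a higher one, are shown because both hold the core of the interferon-stimulated response element (ISRE), searched on both strands as GAAA, then 2 bases of any kind, then GAAA. They are of the C57BL/6J reference from RefSeq as above, and capitals mark the match, 120 bases before the start in Rsad2 and 213 before it in Cxcl10.
Rsad2, chr12:26456403-26456702, minus strand: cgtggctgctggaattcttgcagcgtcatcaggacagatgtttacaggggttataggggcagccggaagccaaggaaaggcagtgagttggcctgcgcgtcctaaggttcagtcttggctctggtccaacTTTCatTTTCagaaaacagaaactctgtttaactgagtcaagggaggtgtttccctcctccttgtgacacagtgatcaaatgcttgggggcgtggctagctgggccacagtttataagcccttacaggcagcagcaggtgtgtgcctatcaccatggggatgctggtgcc
Cxcl10, chr5:92348840-92349139, minus strand: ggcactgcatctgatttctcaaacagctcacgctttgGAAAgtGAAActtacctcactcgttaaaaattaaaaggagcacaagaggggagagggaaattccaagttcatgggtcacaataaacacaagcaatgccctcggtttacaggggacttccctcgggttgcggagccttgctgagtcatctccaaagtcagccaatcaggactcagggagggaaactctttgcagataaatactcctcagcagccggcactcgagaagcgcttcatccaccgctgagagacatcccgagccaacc

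Of 38 genes of the list with a promoter sequence, 24 held the motif, against 3.99% of all genes. It was in 9 of 14 lower genes, 1 of 2 higher genes and 14 of 22 genes that were not called.

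MHC class I genes were split, with 8 of 21 lower and 5 higher, and in cohort 5 alone the balance turned to 5 lower and 8 higher. H2-K1, a classical class I heavy chain, was measured at 836, 947 and 1098 CPM in 129S1/SvImJ and 273, 305 and 396 CPM in DBA/2J, and every 129S1/SvImJ mouse lay above every DBA/2J mouse. The log2 fold change was 1.55 ± 0.11 (adjusted p = 1.03e-20). The proteasome subunits Psmb8 (-0.82) and Psmb9 (-0.91), which cut peptides for class I, Nlrc5 (-0.80), their transactivator, and B2m (-0.39), the light chain, were lower. The 2 strains carry different alleles of H2-K1 and its copies, and such genes are uncertain when mapped to 1 reference.

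Type I collagen and several matrix genes were higher in 129S1/SvImJ on WD, and other collagens were lower. Of 35 collagens, 7 were higher and 5 lower, with a median of 0.25 (0.40 in cohort 5). These are 20% and 14.3%, near the 15.2% and 16.8% over all genes tested. The number of higher collagens was 11 with sample quality weights, 13 in a separate fit of the 13 mice and 14 in cohort 5 alone. Col1a1, the alpha 1 chain of type I collagen and the main collagen of liver scars, was measured at 14.6, 25.1 and 37.8 CPM in 129S1/SvImJ and 4.61, 6.51 and 8.18 CPM in DBA/2J. All 129S1/SvImJ mice were above all DBA/2J mice, and the log2 fold change was 1.96 ± 0.46 (adjusted p = 0.00043) on WD and -0.81 ± 0.71 (adjusted p = 0.409) on CD, a change of 2.78 ± 0.85 (adjusted p = 0.0238). Col1a2, the other chain of type I collagen, was higher at 1.00. Col5a3, a chain of type V collagen, was measured at 19.0, 27.3 and 30.4 CPM in 129S1/SvImJ and 65.9, 69.9 and 118 CPM in DBA/2J, a log2 fold change of -1.68 ± 0.16 (adjusted p = 2.77e-15) on WD and -3.17 ± 0.19 (adjusted p = 2.81e-26) on CD. Timp1, the inhibitor of metalloproteinases chosen after its values were seen, was measured at 0.936, 2.12 and 2.79 CPM in 129S1/SvImJ and 0.191, 0.324 and 0.449 CPM in DBA/2J. For it every 129S1/SvImJ mouse lay above every DBA/2J mouse, and the log2 fold change was 2.48 ± 0.56 (adjusted p = 0.000248). Tnc, tenascin C, was measured at 1.52, 2.44 and 3.33 CPM in 129S1/SvImJ and 0.262, 0.445 and 0.748 CPM in DBA/2J, a log2 fold change of 2.35 ± 0.45 (adjusted p = 1.96e-05), and Lox, the enzyme that crosslinks collagen, was higher at 1.69. Of 50 matrix proteins and proteases, 11 were higher and 6 lower, which is 22% and 12%. The number higher was 19 with sample quality weights, 20 in cohort 5 alone and 23 in the separate fit. Among the lower ones were Fn1, fibronectin (-0.43), and Postn, periostin (-1.11).

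Markers of other liver cells moved beside these genes. Monocyte and neutrophil markers were higher in 6 of 14 and lower in none, with a median of 0.93, and their summed level was 93.3 to 166 CPM in 129S1/SvImJ and 52.8 to 100.2 CPM in DBA/2J. Most of this sum was Lyz2, at 70.15 to 127.1 CPM in 129S1/SvImJ and 38.49 to 73.96 CPM in DBA/2J. Kupffer cell markers, of the resident macrophages, had sums of 510.5 to 651 CPM in 129S1/SvImJ and 461 to 665 CPM in DBA/2J, with 3 of 11 higher and 1, Cd163, lower. The number higher was 1 without DBA/2J replicate 4 and 5 in cohort 5 alone, and Cd163 was called in 11 of 23 alternatives. The sum of the monocyte markers was thus higher in 129S1/SvImJ with some overlap, and that of the Kupffer markers overlapped almost fully. Of 12 T cell markers, 7 were higher and 1, Cd4 (-1.43), lower, and of 10 NK cell markers 3 were higher, while the T cell sum was 8.59 to 17.8 CPM in 129S1/SvImJ and 10.5 to 13.3 CPM in DBA/2J. The number of higher T cell markers was 4 without 129S1/SvImJ replicate 5, and with at least 10 counts in all 13 mice it was 3, with 0 NK cell markers higher. Of 9 dendritic cell markers, 4 were higher and 2 lower. Siglech, a lectin of plasmacytoid dendritic cells, was measured at 2.72, 3.82 and 5.87 CPM in 129S1/SvImJ and 0.449, 0.584 and 0.673 CPM in DBA/2J, a log2 fold change of 2.75 ± 0.23 (adjusted p = 2.81e-18), and Bst2, at -0.78, is itself induced by interferon. The dendritic cell sum, most of it Bst2, was 85.5 to 106 CPM in 129S1/SvImJ and 126 to 167 CPM in DBA/2J, lower in 129S1/SvImJ without overlap. B cell and plasma cell markers had 1 of 12 higher and 1 lower. Their sum was 23.3 to 48.1 CPM in 129S1/SvImJ and 26.0 to 66.3 CPM in DBA/2J, and that of the NK cell markers 2.79 to 4.92 CPM in 129S1/SvImJ and 1.97 to 4.64 CPM in DBA/2J, both with overlap. The part of these cell types in the differences of class II, chemokine and macrophage genes was not tested.

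Sinusoidal endothelial cells, which line the liver capillaries and scavenge waste from blood, had higher markers in 129S1/SvImJ in 13 of 15 genes and a lower one in 1, Clec4g, with a median of 0.42 (0.34 in cohort 5). Their summed level was 816 to 908 CPM in 129S1/SvImJ and 573 to 729.6 CPM in DBA/2J, without overlap. Stab2, a hyaluronan scavenger receptor, was measured at 99.1, 106 and 116 CPM in 129S1/SvImJ and 43.7, 55.9 and 90.1 CPM in DBA/2J, a log2 fold change of 0.81 ± 0.16 (adjusted p = 1.93e-05) on WD and 0.69 ± 0.16 (adjusted p = 0.000243) on CD. Lyve1, another hyaluronan receptor, was measured at 10.6, 13.3 and 21.2 CPM in 129S1/SvImJ and 4.62, 7.16 and 8.90 CPM in DBA/2J. In this gene every 129S1/SvImJ mouse lay above every DBA/2J mouse, and the log2 fold change was 1.03 ± 0.23 (adjusted p = 0.000168) on WD and -0.51 ± 0.27 (adjusted p = 0.133) on CD, a change of 1.55 ± 0.35 (adjusted p = 0.00174). Fcgr2b, the receptor that clears immune complexes, had 0.68 ± 0.08 (adjusted p = 3.3e-11) on WD and 0.64 ± 0.08 (adjusted p = 3.39e-10) on CD. Stellate cell markers had 4 of 13 higher (2 with edgeR and without 129S1/SvImJ replicate 4, DBA/2J replicate 6 or DBA/2J replicate 7) and 3 lower, with sums of 191 to 209.6 CPM in 129S1/SvImJ and 182 to 259 CPM in DBA/2J. Pdgfrb, the PDGF receptor of stellate cells (0.89), was among the higher and Gfap (-1.74) among the lower ones.

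**Figure D4:**
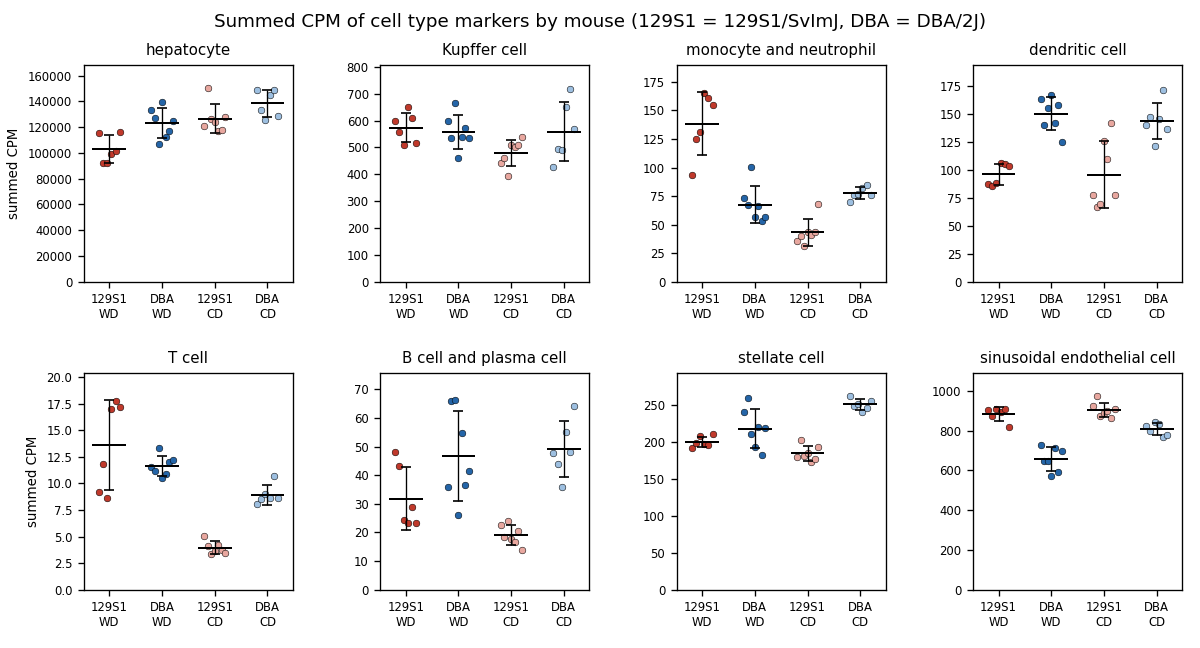
Summed CPM (y axis, from 0) of the markers of 8 cell types in each mouse, with the strain and diet groups on the x axis, a bar at the mean and error bars of 1 SD. On WD the endothelial sum is above every DBA/2J mouse in all 129S1/SvImJ mice, the monocyte and neutrophil sum is mostly higher, and the Kupffer and T cell sums overlap.

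Genes of the mitochondrial genome took a larger share of reads in 129S1/SvImJ, 8.44% ± 0.456 (SD, n = 6), against 6.67% ± 0.439 (SD, n = 7) in DBA/2J (two-sided exact permutation test, p = 0.00117, 0.00816 adjusted over 7 measures). The 13 protein-coding genes of this genome had a median log2 fold change of 0.29, with 4 higher, all subunits of complex I, and none lower. mt-Nd5 was measured at 7407, 8278 and 8792 CPM in 129S1/SvImJ and 5143, 5931 and 7077 CPM in DBA/2J. There was no overlap, with a log2 fold change of 0.44 ± 0.11 (adjusted p = 0.00167), and the call was lost in cohort 5 alone (0.27). mt-Nd6 overlaps mt-Nd5 on the opposite strand. Of 80 nuclear subunits of the respiratory chain, 12 were higher and 6 lower, with a median of 0.03. The number higher was 7 without 129S1/SvImJ replicate 3, 6 without 129S1/SvImJ replicate 4, DBA/2J replicate 2 or DBA/2J replicate 3, 5 in cohort 5 alone and 22 with upper-quartile scaling. Cox6b2, a subunit of complex IV known from testis, was measured at 6.75, 9.14 and 14.8 CPM in 129S1/SvImJ and 0.130, 0.149 and 0.169 CPM in DBA/2J, a log2 fold change of 5.93 ± 0.40 (adjusted p = 7.28e-23), and its liver counterpart Cox6b1 at 167, 177 and 208 CPM in 129S1/SvImJ and 107, 124 and 139.9 CPM in DBA/2J, a log2 fold change of 0.56 ± 0.06 (adjusted p = 2.72e-12). Ndufs5, of complex I, was measured at 7.38, 8.79 and 9.43 CPM in 129S1/SvImJ and 26.0, 28.3 and 30.6 CPM in DBA/2J, a log2 fold change of -1.69 ± 0.08 (adjusted p = 4.1e-34), and all 3 subunits kept their sign on CD (4.66, 0.64 and -1.37).

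Several genes were called on WD alone, with a called change of the strain difference and no call on CD. There were 653 of them. Ranked by size among genes whose mean log2 CPM was 1 or more and whose groups did not overlap, the highest were Mmp12, Itgax, Serpina3f, H2-DMb1, H2-Eb1, H2-Ab1, Cd52 and Saa3. Serpina3f, a serine protease inhibitor, was measured at 5.01, 6.20 and 9.81 CPM in 129S1/SvImJ and 0.834, 0.888 and 1.52 CPM in DBA/2J, a log2 fold change of 2.73 ± 0.36 (adjusted p = 9.76e-10) on WD and 0.75 ± 0.41 (adjusted p = 0.148) on CD. The lowest were A4gnt, Mas1, Lpar1, Prss8, Rab27a, Casc4, Src and Impg2. A4gnt, an N-acetylglucosaminyltransferase, was measured at 0.944, 1.65 and 3.06 CPM in 129S1/SvImJ and 7.32, 12.2 and 24.4 CPM in DBA/2J, a log2 fold change of -2.94 ± 0.37 (adjusted p = 1.6e-10) on WD and -0.60 ± 0.40 (adjusted p = 0.25) on CD. For A4gnt every 129S1/SvImJ mouse lay below every DBA/2J mouse. Mas1, the receptor of angiotensin 1-7, was measured at 1.34, 1.99 and 3.80 CPM in 129S1/SvImJ and 5.45, 9.01 and 11.6 CPM in DBA/2J, a log2 fold change of -2.04 ± 0.29 (adjusted p = 1.43e-08) and a change with diet of -2.85 ± 0.77 (adjusted p = 0.0101). Lpar1, a lysophosphatidic acid receptor, was at -1.72 ± 0.18 (adjusted p = 9.45e-14), and Rab27a, a small GTPase of secretory vesicles, at -1.63 ± 0.14 (adjusted p = 1.96e-17), with -0.41 and -0.15 on CD. Src, the tyrosine kinase, had -1.42 ± 0.18 (adjusted p = 2.26e-10), and Prss8, the membrane protease prostasin, which overlaps Kat8 on the opposite strand, had -1.66 ± 0.32 (adjusted p = 2.28e-05).

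**Figure D5:**
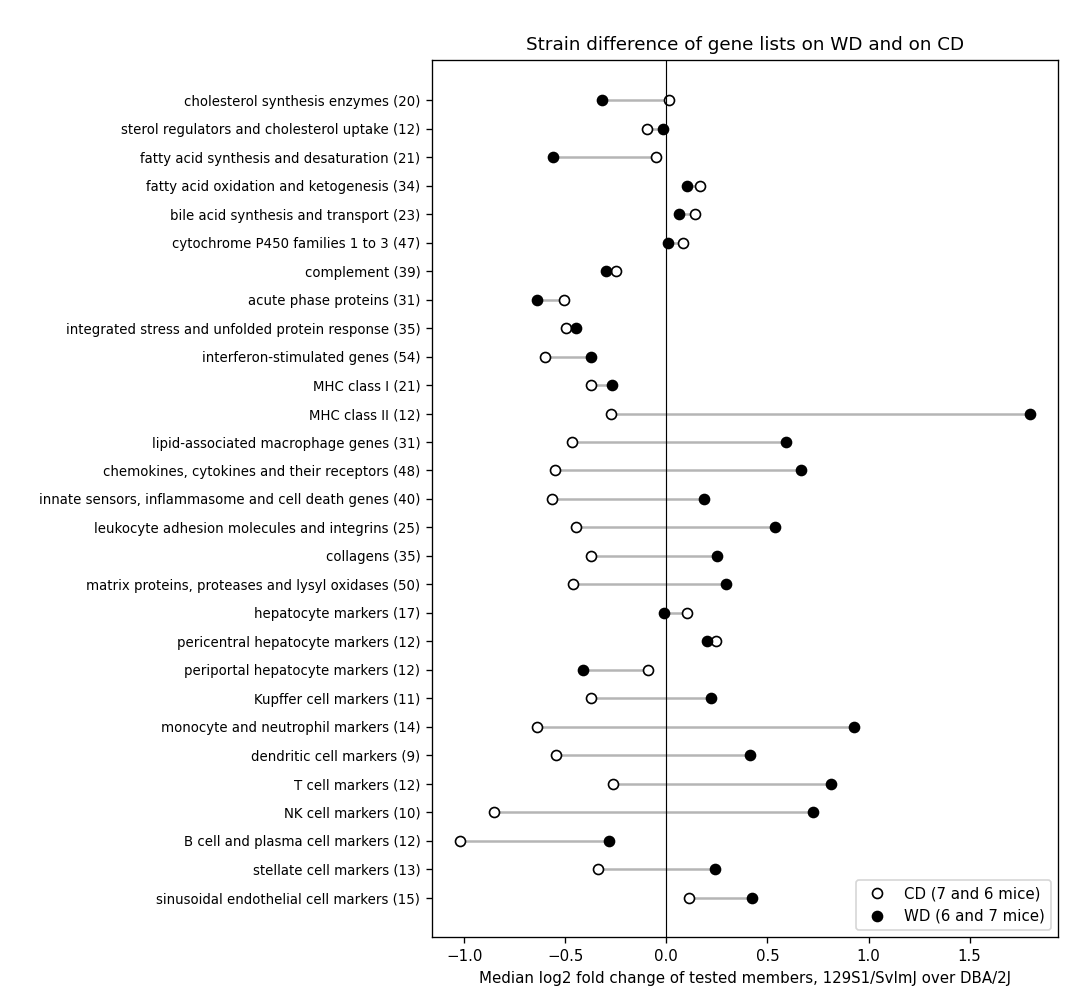
Median log2 fold change, 129S1/SvImJ over DBA/2J (x axis), of the tested members of 29 gene lists on WD (filled) and on CD (open), with the number tested in parentheses. MHC class II moves from -0.27 on CD to 1.80 on WD and the chemokine list from -0.55 to 0.67, while the unfolded protein response list stays near -0.50 and -0.45.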

How the data were processed

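Liver RNA of 93 male mice of 7 strains was sequenced by the authors on a BGISEQ-500 from SMARTER libraries. Per the submitters' processing notes, reads were mapped with STAR 2.7.1a, with builds GRCm38 and mm10 named, and per the methods all strains were mapped to the C57BL/6J genome. The table the authors deposited holds unnormalized gene counts, in whole reads, for each mouse. The annotation release and the strand setting are not given in the sources used here. The 4 summary lines were removed from the table and used for read shares, and gene symbols came from GENCODE.

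The fit used limma 3.58.1 after filterByExpr (minimum count 10) and TMM in edgeR 4.0.16, under R 4.3.3, with voom and 1 mean for each of 14 groups over 93 mice. Contrasts were 129S1/SvImJ minus DBA/2J on WD, on CD, and their difference, each adjusted by Benjamini–Hochberg over 19110 genes at a threshold of 0.05. Levels are CPM on TMM-scaled libraries. The members and the 52 gene lists were chosen with earlier results of these data known, and lists were described by counts and medians, with no set test. Read shares and other measures of the mice were compared by two-sided exact permutation tests, without regard to cohort and adjusted over 7 measures. Promoters came from RefSeq.

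Genes named were the 10 largest changes each way without overlap between the strains (mean log2 CPM of 1 or more), up to 3 DEGs of each list (mean log2 CPM of 0 or more), the 8 largest each way of those called on WD and in the diet difference but not on CD, and genes that check strain labels. Some genes are not reported here, although they stay in the counts and medians of lists. Genes outside this rule are said to be chosen after their values were seen. Each GEO sample is taken as 1 mouse. Alternatives were the edgeR quasi-likelihood test, DESeq2 1.42.0, upper-quartile scaling, no filter on counts, a minimum of 10 in all WD mice, sample quality weights, a fit of the 13 mice, cohort or RIN as a covariate, cohort 5 alone, and leaving out each mouse. The scripts were tested on simulated data.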

Additional observations from a re-analysis of the deposited data

Results flagged for a closer look

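A single WD mouse stood apart from the others of its strain, by the gap to the nearest mouse as a share of the range, in 25 of 388 groups of values examined (6.44%). The rule assumes about 1 in 20 by chance, and this rate was not tested on these values. The groups of values come from the same mice and are not independent. Except where said otherwise the mouse was the highest of its group. In 129S1/SvImJ replicate 2 this was 43.0 CPM summed for cholangiocyte markers. In 129S1/SvImJ replicate 3 this was 302 CPM for Alad. In 129S1/SvImJ replicate 5 this was 66.5 CPM for Elovl6. In 129S1/SvImJ replicate 6 these were 179.9 CPM for Lpin1, 932 CPM for Tat, 10.8 CPM for Cyp2a22, 2.51 CPM for Aurka and 816 CPM summed for sinusoidal endothelial cell markers (the lowest). In DBA/2J replicate 1 these were 177 CPM for Cyp4a32, 4.08 CPM for H2-Q2, 9.25 CPM for Itga6 and 1.52 CPM for Serpina3f. In DBA/2J replicate 2 these were 33.8 CPM summed for pancreatic acinar markers and 373 CPM summed for red blood cell markers. In DBA/2J replicate 3 this was 55.8 CPM for H2-Aa. In DBA/2J replicate 4 these were 192 CPM for Igfbp2 and 12.7 CPM for Prss8. In DBA/2J replicate 5 these were 14.3 CPM for Mvd, 67.2 CPM for Cyp51, 269 CPM for Insig1, 190.3 CPM for Cyp4a12b, 75.0 CPM for Hamp2 and 1538 CPM for Calr. In DBA/2J replicate 6 these were 212 CPM for Elovl6 and 2.97 CPM for Rrm2. The pancreatic acinar genes were at most 0.858 CPM summed in the other DBA/2J mice, and limma-voom, edgeR and DESeq2 called 0 of the 6 genes of that list tested, with 0 at an unadjusted p under the threshold.

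For 51 named genes the strain difference itself changed with diet in limma-voom's test (adjusted p below 0.05 over all genes tested). The values are the log2 fold change of 129S1/SvImJ over DBA/2J on WD minus that on CD. Among immune genes the change was 4.05 for Mmp12, 2.07 for H2-DMb1, 2.37 for H2-Eb1, 2.27 for H2-Ab1, 2.18 for H2-Aa, 2.44 for Ciita, 1.62 for Cxcl10, 3.62 for Itgax, 2.33 for Ccr2, 3.18 for Ccl2, 2.90 for Cx3cr1, 3.78 for Tnf, 3.59 for Trem2, 2.38 for Lgals3, 2.02 for Lyz2, 1.03 for Adgre1, 1.38 for Siglech, 1.29 for Cd22, 2.11 for Cd52 and 0.82 for Cd1d2. Among matrix, stellate, endothelial and protease genes it was 2.78 for Col1a1, 1.49 for Col5a3, 0.81 for Pdgfrb, 0.78 for Ngfr, 1.55 for Lyve1, 1.44 for Plau and 1.57 for Plaur. Among metabolic genes it was -1.35 for Fdps, -1.43 for Srebf1, -1.02 for Elovl6, 0.93 for Apom, 1.58 for Cyp4a32, 2.699 for Cyp4a12b, -0.56 for Cyp2c23, -1.29 for Sds and 0.92 for Igfbp2. For the remaining named genes it was 1.32 for C4a, -0.41 for Gclm, 1.17 for Hmox1, -0.57 for Ccng1, -0.32 for Ndufs5, 1.98 for Serpina3f, 2.38 for Saa3, -2.34 for A4gnt, -2.85 for Mas1, -1.31 for Lpar1, -2.09 for Prss8, -1.48 for Rab27a, -1.51 for Casc4, -1.20 for Src and -0.9996 for Impg2. Genes were named partly for a call on WD, so the signs are in part fixed by the choice.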

How the results depend on the processing

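Over 23 alternatives, 4091 of 4217 named gene values kept their direction and side of the threshold, 123 kept the direction but were no longer called, 1 became called and 2 reversed. Both reversals were of Casp4, which was not called (log2 fold change 0.04): -0.003324 without 129S1/SvImJ replicate 6 and -0.006432 without DBA/2J replicate 4, with 0.105 the highest of the fits that leave out a mouse. Most named genes were chosen for a call in the fit reported, and the alternatives use the same mice. The agreement of the named genes is thus in part fixed by the choice and is not an independent check. The DEGs on WD, 6112 in the fit reported, numbered 6034 with edgeR, 6268 with DESeq2, 6125 with upper-quartile scaling, 5849 with cohort and 6143 with RIN as a covariate, 7717 with sample quality weights, 6792 in a separate fit, 6940 with genes of any count, 4853 with at least 10 counts in all 13 mice and 4494 in cohort 5 alone. Genes with a strain difference changed by diet numbered 3320 with sample quality weights, against 1894. In cohort 5 alone, with fewer mice, 2115 DEGs were lower, against 3206. Lower cholesterol synthesis enzymes numbered 3 with genes of any count and 12 in a separate fit, against 7. Lower interferon-stimulated genes numbered 10 with cohort as a covariate and 13 in cohort 5 alone, against 21. Higher collagens numbered 11 with weights, 13 in the separate fit and 14 in cohort 5 alone, against 7, and higher lipid-associated macrophage genes 23 in cohort 5 alone, against 14. The causes were not tested.

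With each mouse left out in turn, DEGs on WD ranged from 5547 to 5997, with 2643 to 2834 higher and 2904 to 3163 lower, DEGs on CD from 6730 to 6766, genes with the same direction on both diets from 3106 to 3302, genes with a changed strain difference from 1453 to 1956, and lower cholesterol synthesis enzymes from 4 to 7 (4 without DBA/2J replicate 5). Upper-quartile scaling moved the median of all genes to 0.04 and the share of DEGs that were higher to 57.3%, against 47.5%. No paired analysis was possible because the labels give no replicate numbers. Counting error limits genes at a few reads per mouse, such as Gpnmb in DBA/2J. In the separate fit, 16 cytochrome P450 genes were higher and 12 lower, against 10 and 7.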

Other observations

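Other metabolic groups were split between the strains on WD. Of 47 genes of amino acid, urea and one-carbon metabolism, 10 were lower and 7 higher in 129S1/SvImJ, with a median log2 fold change of 0.01. Gnmt, the methyltransferase that disposes of surplus S-adenosylmethionine, was measured at 1198, 1352 and 1443 CPM in 129S1/SvImJ and 478, 676 and 789.6 CPM in DBA/2J (lowest, median and highest mouse), and every 129S1/SvImJ mouse lay above every DBA/2J mouse. Its log2 fold change was 1.05 ± 0.12 (adjusted p = 2.68e-11). Tfrc, the transferrin receptor (-0.75), and the iron and zinc transporter Slc39a14 (-0.78) were lower, as 2 of the 4 lower and 4 higher genes among 26 of iron handling. Gclm, the modifier subunit of the enzyme that limits glutathione synthesis, was measured at 218, 228 and 242 CPM in 129S1/SvImJ and 126, 139.6 and 152 CPM in DBA/2J. For Gclm every 129S1/SvImJ mouse lay above every DBA/2J mouse, with a log2 fold change of 0.72 ± 0.06 (adjusted p = 9.04e-17), and 5 of 24 NRF2 targets were higher and 2 lower.

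Igfbp3, the main carrier of insulin-like growth factor 1 in blood, was measured at 63.5, 66.4 and 76.3 CPM in 129S1/SvImJ and 14.2, 22.02 and 26.2 CPM in DBA/2J. In this gene every 129S1/SvImJ mouse lay above every DBA/2J mouse, and the log2 fold change was 1.72 ± 0.14 (adjusted p = 3.25e-18), while Igf1 itself was lower by little more than the threshold asks, at -0.30 ± 0.12 (adjusted p = 0.0439). Of 29 genes of the growth hormone axis, 3 were higher and 3 lower, with 1 lower without 129S1/SvImJ replicate 2, 3, 4 or 5 and 6 higher in cohort 5 alone. None of 21 major urinary proteins was called on WD by limma-voom, at a median of -0.07, and 1 had an unadjusted p under the threshold. On the same WD mice edgeR called 0 of them, DESeq2 called 2 lower, a separate fit of the 13 mice called 5 lower and 2 higher, and cohort 5 alone called 6 lower. On CD their median was -1.29, with 7 lower. Esr1, the estrogen receptor alpha, was measured at 7.34, 9.48 and 13.5 CPM in 129S1/SvImJ and 22.4, 27.6 and 37.1 CPM in DBA/2J, a log2 fold change of -1.62 ± 0.24 (adjusted p = 2.98e-08). Of 27 nuclear receptors and identity factors, 4 were higher and 4 lower, and of 27 hepatokines 6 were higher and 5 lower (3 lower without 129S1/SvImJ replicate 2 or 3 or DBA/2J replicate 7). The circadian clock (1 higher and 2 lower of 19), the cell cycle (3 higher and 2 lower of 28) and p53 targets (2 higher of 20, and between 1 and 4 with 1 mouse left out) held few DEGs. Of 17 carboxylesterases, 4 were higher and 3 lower (2 higher without DBA/2J replicate 1, 3 or 7, and 8 higher in a separate fit). Of 80 cytosolic ribosomal proteins, 22 were higher and 4 lower, and the number higher was 5 in cohort 5 alone, 13 without 129S1/SvImJ replicate 3 or replicate 4 and 14 without DBA/2J replicate 2. Rps18 (1.74), Rpsa (1.39) and Rpl30 (-1.04) have pseudogene copies, so that these values are uncertain. Genes named here beyond the rule were chosen after their values were seen. Markers of cholangiocytes (1 higher and 1 lower of 10) and red blood cells (1 higher of 6) held few DEGs. Of 4 adipocyte markers, limma-voom, edgeR and DESeq2 called 0, and 1 had an unadjusted p under the threshold.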
